A study of Mus musculus with 6 samples.

Results

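Transcription factors that set macrophage lineage and tissue identity were examined in F4/80+ CD11b+ adipose tissue macrophages sorted from mouse white fat and profiled by RNA sequencing. The 9 genes Spi1, Irf8, Runx1, Cebpa, Cebpb, Maf, Zeb2, Mef2c and Bhlhe41 were taken by name from the 57180 genes of the deposited table, and each matched 1 Ensembl ID. The tested libraries, HFD+MGIG 1, 2 and 3, came from wild-type (WT) mice given a high-fat diet and magnesium isoglycyrrhizinate (MGIG), the magnesium salt of an isomer of the liquorice compound glycyrrhizic acid. The comparison libraries, HFD 1, 2 and 3, came from WT mice on the same diet without MGIG. The labels give no sex, age, dose or length of treatment, and do not say whether each library came from its own mouse, so the p-values speak only of variation among these libraries, perhaps technical in origin. The sort is stated in the series' design, whereas the extraction protocol speaks of RNA from tissue.

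Macrophages are specified by a small set of DNA-binding proteins. PU.1, the product of Spi1, opens enhancers in the myeloid lineage together with C/EBP proteins, RUNX1 and IRF8, and in mature cells MAF, ZEB2, MEF2C and BHLHE41 help to hold the programme of a given tissue. Several of these proteins also act elsewhere in fat, where C/EBP-alpha and C/EBP-beta drive adipocyte differentiation and MEF2C is active in endothelium and smooth muscle.

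The libraries of the 2 groups differed in depth and composition. Total counts were between 2214367 and 4904167 in HFD+MGIG and between 14437531 and 16740374 in HFD, and 1597 coding genes of olfactory, vomeronasal and bitter taste receptor, keratin-associated protein and beta-defensin families, taken as largely silent in macrophages, held 2.93% to 6.42% of HFD+MGIG counts and 0.0624% to 0.280% of HFD counts. HFD+MGIG 2 was unlike the rest: over coding genes its log2 CPM (library counts scaled to a common total per library) had a Pearson r of 0.594 to 0.645 with HFD libraries, where HFD+MGIG 1 and 3 had 0.836 to 0.892. Each level was therefore read beside a background bound, found by multiplying a gene's exon length by the counts per kb that 90% of the silent-family genes of that library stay at or below. Where 1 bound is given for HFD+MGIG, it is the mean over its 3 libraries. Library composition and treatment cannot be told apart in this design, and in bulk RNA fewer cells of a type and less RNA per cell cannot be told apart either. Macrophage markers had counts in every library. Lyz2, the macrophage lysozyme, had 8771, 3793 and 7565 CPM in HFD+MGIG 1, 2 and 3 and 7451, 7785 and 8406 CPM in HFD 1, 2 and 3. Of the sort markers, Adgre1 (F4/80) had 387, 135 and 327 CPM in HFD+MGIG and 468, 530 and 546 CPM in HFD, and Itgam (CD11b) had 167, 38.8 and 144 CPM in HFD+MGIG and 200, 220 and 316 CPM in HFD. Both were lower in HFD+MGIG without overlap but missed the threshold (adjusted p = 0.0735 and 0.0547 in edgeR). The mean bounds in HFD+MGIG were 8.43 CPM for Lyz2, 20.7 CPM for Adgre1 and 32.2 CPM for Itgam. Per kb of exon, the bound was 9.41 CPM in HFD+MGIG 2, against 5.23 and 4.58 CPM in HFD+MGIG 1 and 3. The level of Itgam in HFD+MGIG 2 was thus not clear of the background. Summed markers of endothelium, fibroblasts (2666 to 4461 CPM in HFD+MGIG and 5464 to 9146 CPM in HFD), mural cells and adipocytes were above 0 in every library as well.

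Of the 9 factors, Cebpa was lower and Bhlhe41 was higher in HFD+MGIG, and the other 7 were not called by the quasi-likelihood test of edgeR (adjusted p under 0.05). All 9 passed the filter on low counts. Across the 23053 genes tested, 17.8% were called lower and 43.0% higher, so 1 lower and 1 higher factor of 9 did not stand above the background of this comparison. DESeq2 called 3 factors lower and 1 higher (20.2% and 44.6% of all genes), and limma voom 5 lower and 1 higher (29.8% and 46.7% of all genes). Log2 fold changes (HFD+MGIG over HFD) were below 0 for 8 of 9 factors, with a median of −0.73, beside 45.2% of all filtered genes and a median of 0.38. Among 2606 background-limited genes, coding genes with at least 2 exon blocks whose bound was at most 0.25 of their mean CPM over all 6 libraries, 96.8% had a log2 fold change below 0 and the median was −0.91. On the scale of CPM the groups did not overlap for 6 factors that were lower and 1 that was higher in HFD+MGIG, where 23.7% of all filtered genes were lower and 48.9% higher without overlap, and 68.0% and 2.8% of the background-limited genes. The lowest of the HFD+MGIG values was in HFD+MGIG 2 for 7 of the 9 factors.

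**Figure D1:**
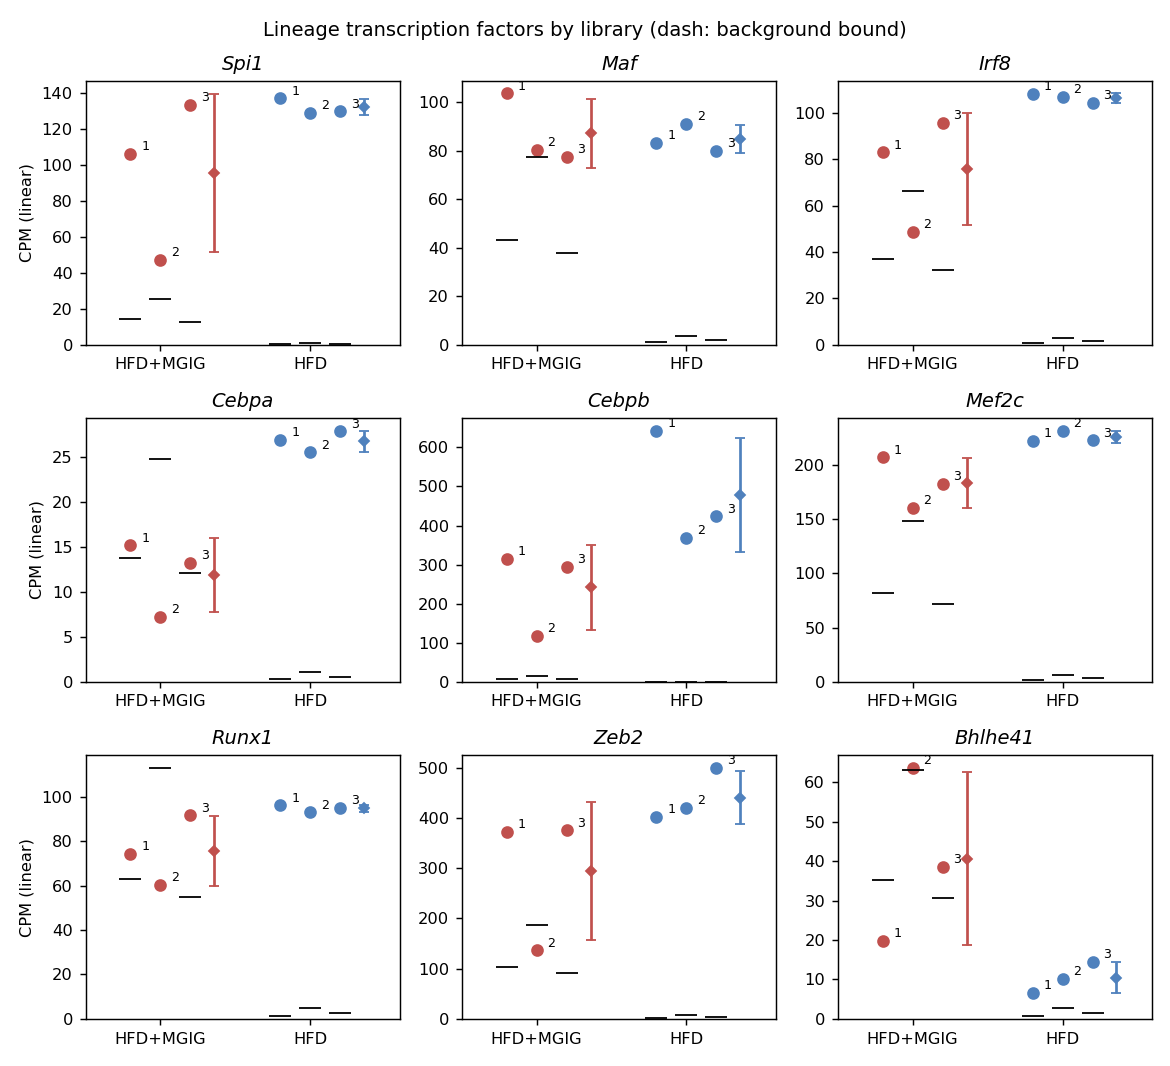
CPM (linear axis from 0) of the 9 factors in each of the 3 HFD+MGIG (red) and 3 HFD (blue) libraries, numbered by replicate, with diamonds and bars for the mean ± SD and black dashes for the background bound of the library. The HFD libraries lie close together for most factors, and HFD+MGIG 2 is low for 7 of 9. On average, the bounds of HFD+MGIG libraries exceed the levels of Cebpa, Runx1 and Bhlhe41. The bound of HFD+MGIG 2 lies above the levels of Irf8 and Zeb2 in that library as well.

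Spi1 (ENSMUSG00000002111; mm10 chromosome 2, 91082390 to 91115756, plus strand) encodes PU.1, the ETS-domain protein without which macrophages do not form. It had 106, 47.0 and 133 CPM in HFD+MGIG 1, 2 and 3, against 137, 129 and 130 CPM in HFD 1, 2 and 3. HFD+MGIG 3 lay within the HFD values, HFD+MGIG 1 somewhat below them and HFD+MGIG 2 far below, so the groups overlapped. Its log2 fold change was −0.73 (SE 0.438, edgeR adjusted p = 0.158), which is 0.18 above the median of the background-limited genes, and −0.34 without HFD+MGIG 2 (adjusted p = 0.0965). Spi1 is itself a background-limited gene, and in a fit of that set with scaling factors of its own it had 0.18 (SE 0.187, edgeR adjusted p = 0.574). Its level was at least 1.85 times the bound in every HFD+MGIG library.

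Irf8 (ENSMUSG00000041515; chromosome 8, 120736358 to 120756694, plus strand) encodes the interferon regulatory factor that binds DNA with PU.1 and guides monocyte and dendritic cell development. It had 83.1, 48.8 and 95.8 CPM in HFD+MGIG 1, 2 and 3 and 108, 107 and 104 CPM in HFD 1, 2 and 3. All HFD+MGIG values were below all HFD values, and the HFD libraries differed by 1.83% (coefficient of variation). The log2 fold change of −0.77 (SE 0.379) missed the threshold in edgeR's test (adjusted p = 0.0928), and it passed without HFD+MGIG 2 (−0.45, edgeR adjusted p = 0.0302) and in limma voom (adjusted p = 0.0414). Only these 2 of 13 alternatives passed, and DESeq2 gave an adjusted p of 0.0557. In HFD+MGIG 2 the level was 0.735 of the bound, and on the background-limited scale the difference was 0.19 (SE 0.140, edgeR adjusted p = 0.427).

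Runx1 (ENSMUSG00000022952; chromosome 16, 92601466 to 92826149, minus strand) encodes the DNA-binding subunit of core binding factor, needed for blood stem cells to arise. It had 74.5, 60.5 and 91.8 CPM in HFD+MGIG 1, 2 and 3 and 96.1, 93.0 and 95.1 CPM in HFD 1, 2 and 3. The groups did not overlap, although HFD+MGIG 3 came close to HFD 2. A log2 fold change of −0.62 was fitted (SE 0.340, edgeR adjusted p = 0.124), with −0.39 when HFD+MGIG 2 was left out (adjusted p = 0.0589), and in HFD+MGIG the mean was 0.981 of the bound of 77.0 CPM. The upstream Runx1 promoter is shown because it was the one window among those of the 9 factors with the RUNX letters TGTGGT, which 16.8% of all promoter windows hold on either strand. The window runs from 250 bases before to 50 after the start in RefSeq (GRCm38.p6, chr16:92826025-92826324, minus strand), and its capitals mark, in order, CAGGTG (the ZEB2 letters CACCTG on the other strand, in 20.2% of windows), CACGTG (the E-box letters searched for BHLHE41, in 7.15%) and 2 copies of ACCACA, the RUNX letters on the other strand.
Runx1 upstream promoter: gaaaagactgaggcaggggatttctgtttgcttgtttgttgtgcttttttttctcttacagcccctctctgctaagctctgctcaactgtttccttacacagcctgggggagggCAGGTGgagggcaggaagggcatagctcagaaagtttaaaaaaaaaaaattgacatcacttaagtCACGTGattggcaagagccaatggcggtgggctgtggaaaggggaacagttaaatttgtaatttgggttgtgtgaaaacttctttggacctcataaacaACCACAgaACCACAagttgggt

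Cebpa and Cebpb, the C/EBP genes, were the factors with the lowest log2 fold changes. Cebpa (ENSMUSG00000034957; chromosome 7, 35119293 to 35121928, plus strand) encodes C/EBP-alpha, which acts with PU.1 in myeloid progenitors and also in mature adipocytes. It had 15.2, 7.23 and 13.3 CPM in HFD+MGIG 1, 2 and 3, against 26.9, 25.6 and 27.9 CPM in HFD 1, 2 and 3. Every HFD+MGIG value was well below every HFD value. The means were 11.9 ± 4.15 and 26.8 ± 1.17 CPM (SD, n = 3 each; ratio 0.444), and the fitted log2 value was −1.42 (SE 0.346, adjusted p = 0.00369 in edgeR). DESeq2 and limma voom also called it lower (adjusted p = 0.000434 and 0.000108). The HFD+MGIG 2 value rests on 16 counts, with an exact Poisson 95% interval of 4.13 to 11.7 CPM that covers counting error only. Cebpa stood at −0.51 from the background-limited median, and when it was added to the fit of that set it had −0.50 (SE 0.180, edgeR adjusted p = 0.118), which is not called.

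The Cebpa mean in HFD+MGIG was 0.704 of its bound of 16.9 CPM, against 40.1 times the bound in HFD. Cebpa has 1 exon, so its reads cannot be separated from reads of genomic DNA by splicing. Adipocyte markers moved in the same direction, with 10 of 12 lower and 0 higher in edgeR's test and summed levels of 2029 to 2849 CPM in HFD+MGIG and 4420 to 7058 CPM in HFD. In that fit 17.8% of all filtered genes and 42.9% of the background-limited genes were called lower. On the background-limited scale 1 of 6 adipocyte markers was called lower, beside 6.25% of all 2606 genes. None of the 12 was at 0 in all libraries, and the adipocyte carbonic anhydrase gene Car3 had 213, 173 and 272 CPM in HFD+MGIG 1, 2 and 3 and 1058, 476 and 961 CPM in HFD 1, 2 and 3. Among the HFD libraries Car3 was lowest by far in HFD 2, where Cebpa was also lowest but close to the other HFD values. The part of adipocyte RNA in the Cebpa difference was not tested. The Cebpa promoter window (RefSeq, GRCm38.p6, chr7:35119043-35119342, plus strand), shown as that of the 1 factor called lower, held none of the letters searched and so has no capitals.
Cebpa promoter: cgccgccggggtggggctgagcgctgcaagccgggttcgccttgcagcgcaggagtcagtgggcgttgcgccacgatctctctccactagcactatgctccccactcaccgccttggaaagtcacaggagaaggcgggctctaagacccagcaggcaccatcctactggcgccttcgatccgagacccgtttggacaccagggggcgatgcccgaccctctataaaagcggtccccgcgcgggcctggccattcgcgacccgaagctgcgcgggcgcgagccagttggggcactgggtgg

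Cebpb (ENSMUSG00000056501; chromosome 2, 167688915 to 167690418, plus strand) encodes C/EBP-beta, which is induced in activated macrophages and sustains monocyte survival. It had 315, 117 and 294 CPM in HFD+MGIG 1, 2 and 3 and 643, 368 and 424 CPM in HFD 1, 2 and 3. The groups did not overlap, and HFD 1 was well above the other HFD libraries. The log2 fold change of −1.23 (SE 0.514) missed the threshold in edgeR (adjusted p = 0.0547), while DESeq2 gave an adjusted p of 0.0155 and limma voom one of 0.00584. It also passed edgeR's test without HFD+MGIG 1 or HFD+MGIG 2 (adjusted p = 0.0406 and 0.00842). It did not pass without HFD+MGIG 3, HFD 1, HFD 2 or HFD 3 (edgeR adjusted p = 0.119, 0.156, 0.0643 and 0.113). In all, 7 of 13 alternatives called it lower. Cebpb too has 1 exon, but its level was at least 8.30 times the bound in every HFD+MGIG library. Added to the background-limited genes it had −0.36 (SE 0.232, edgeR adjusted p = 0.369). Its exon overlaps Tmem189 on the opposite strand over 312 bases (20.7% of its length), so without stranded counts reads of that stretch cannot be assigned.

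Maf (ENSMUSG00000055435; chromosome 8, 115682942 to 115707794, minus strand) encodes c-MAF, a basic leucine zipper protein that restrains macrophage self-renewal and induces IL-10. It had 104, 80.4 and 77.5 CPM in HFD+MGIG 1, 2 and 3 and 83.2, 91.1 and 80.0 CPM in HFD 1, 2 and 3. The groups overlapped, with means of 87.2 ± 14.3 and 84.7 ± 5.71 CPM (SD, n = 3 each). Its log2 fold change, −0.27 with an SE of 0.335 (edgeR adjusted p = 0.491), turned to 0.062 with library totals in place of TMM factors and 0.14 with genes of at least 5 CPM in 3 libraries. Added to the background-limited genes, Maf had 0.77 (SE 0.206, edgeR adjusted p = 0.0483). That call did not hold when any 1 HFD library was left out (edgeR adjusted p = 0.158 for HFD 1, 0.125 for HFD 2 and 0.156 for HFD 3), nor without HFD+MGIG 1 (adjusted p = 0.0808), and it was lost with the median background subtracted from the counts (0.65, adjusted p = 0.107). Its level in HFD+MGIG 2 was 1.04 times the bound.

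Zeb2 (ENSMUSG00000026872; chromosome 2, 44983632 to 45117395, minus strand) encodes a zinc finger repressor that keeps resident macrophages to the identity of their tissue. It had 373, 136 and 376 CPM in HFD+MGIG 1, 2 and 3 and 402, 420 and 500 CPM in HFD 1, 2 and 3. HFD+MGIG 1 and 3 lay just below the HFD values and HFD+MGIG 2 far below. The fitted difference was −0.85 on the log2 scale (SE 0.512, edgeR adjusted p = 0.162), and −0.44 without HFD+MGIG 2 (adjusted p = 0.0518). In limma voom Zeb2 was called lower (adjusted p = 0.0493), the only 1 of 13 alternatives that passed. Zeb2 is a background-limited gene on average, but in HFD+MGIG 2 it was at 0.727 of the bound. On that scale it had 0.04 (SE 0.191, edgeR adjusted p = 0.916), with a sign that changed with several settings.

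Mef2c (ENSMUSG00000005583; chromosome 13, 83504034 to 83667080, plus strand) encodes a MADS-box factor that favours monocytes over granulocytes among myeloid progenitors and is also active in muscle and endothelium. It had 207, 160 and 183 CPM in HFD+MGIG 1, 2 and 3 and 222, 232 and 223 CPM in HFD 1, 2 and 3. The groups did not overlap, and HFD+MGIG 2 was the lowest. For Mef2c the log2 fold change was −0.60 (SE 0.390, edgeR adjusted p = 0.187; DESeq2 adjusted p = 0.0357; limma voom adjusted p = 0.0153), and on the background-limited scale, to which Mef2c was added, it was 0.44 (SE 0.174, edgeR adjusted p = 0.157). The level was 1.08 times the bound in HFD+MGIG 2. Endothelial markers were lower over the same libraries, 14 of 15 in edgeR's test (8 of 10 on the background-limited scale), with summed levels of 590 to 1170 CPM in HFD+MGIG and 2983 to 3408 CPM in HFD and none at 0 throughout. Pericyte and smooth muscle markers were lower for 8 of 10 (507 to 890 CPM in HFD+MGIG and 1404 to 2093 CPM in HFD, none at 0 throughout), and for 1 of 4 on the background-limited scale. In the first fit 17.8% of all filtered genes and 42.9% of the background-limited genes were called lower. On the background-limited scale 6.25% of all 2606 genes were called lower. The part of these cells in the Mef2c values was not tested.

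Bhlhe41 (ENSMUSG00000030256; chromosome 6, 145858243 to 145865558, minus strand) encodes a basic helix-loop-helix repressor that, with BHLHE40, supports identity and self-renewal of alveolar macrophages. It had 19.8, 63.7 and 38.5 CPM in HFD+MGIG 1, 2 and 3, against 6.69, 10.1 and 14.5 CPM in HFD 1, 2 and 3. All HFD+MGIG values were above all HFD values, and the highest was in HFD+MGIG 2, the library with the largest share of silent-family counts. The means were 40.7 ± 22.0 and 10.4 ± 3.90 CPM (SD, n = 3 each; ratio 3.90), and the fitted log2 value was 1.56 (SE 0.398, adjusted p = 0.00492 in edgeR).

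The HFD+MGIG values of Bhlhe41 were 0.562, 1.01 and 1.25 times the bounds of HFD+MGIG 1, 2 and 3, whereas the HFD values were 7.80, 3.57 and 10.1 times theirs. The level was thus within reach of the background in HFD+MGIG and above it in HFD. Added to the background-limited genes, Bhlhe41 had 2.82 (SE 0.690, edgeR adjusted p = 0.0518), and 2.57 (adjusted p = 0.0879) with the median background subtracted. Without HFD+MGIG 1 or HFD+MGIG 2 the value on that scale passed (edgeR adjusted p = 0.00814 and 0.0220), as it did in DESeq2 (2.90, adjusted p = 0.00272). With the replicate block, these made 4 of 11 alternatives that passed. The value did not pass without HFD+MGIG 3 or any 1 HFD library. With the full bound subtracted it turned to −0.58 (adjusted p = 0.793). A part of its exons, 1280 bases or 19.0%, overlaps Gm43909 on the opposite strand, which held 12 counts or fewer in every library. The part of background reads in the Bhlhe41 difference was not tested. The Bhlhe41 promoter window is shown as that of the 1 factor called higher (RefSeq, GRCm38.p6, chr6:145865371-145865670, minus strand), and its capitals mark CAGGTG at positions 12 and 26 and the E-box CACGTG, the letters searched for BHLHE41 itself, at position 98.
Bhlhe41 promoter: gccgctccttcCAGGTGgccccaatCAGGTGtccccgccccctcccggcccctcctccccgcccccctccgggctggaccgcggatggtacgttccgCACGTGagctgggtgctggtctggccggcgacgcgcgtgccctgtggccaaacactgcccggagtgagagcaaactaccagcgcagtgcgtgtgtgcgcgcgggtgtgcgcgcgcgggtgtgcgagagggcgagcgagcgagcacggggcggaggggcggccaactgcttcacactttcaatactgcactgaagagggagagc

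Promoter windows of RefSeq were found for 7 of the 9 factors, 14 windows in all, and were searched on both strands beside all 32851 windows of the table. The PU.1 core letters GAGGAA occurred in windows of Mef2c, Runx1 and Zeb2 (7 of 14 windows, beside 28.3% of all), while the longer GAGGAAGT, which contains them, occurred in none (3.20% of all). The Zeb2 windows overlap in part and share matches. The C/EBP letters TTGCNNAA were found in 1 window, the outermost of Zeb2 (10.8% of all). None held the spaced IRF motif (a pair of GAAA repeats, 3.44%), the MAF letters TGCTGAC (4.67%), the MEF2 letters TAAAAATA (2.72%) or TGTGGTTT (1.78%), a longer form of the RUNX letters. The Zeb2 window is shown as the one with both C/EBP and PU.1 letters, TTGCAAAA and GAGGAA in capitals (GRCm38.p6, chr2:45117393-45117692, minus strand).
Zeb2 outermost promoter: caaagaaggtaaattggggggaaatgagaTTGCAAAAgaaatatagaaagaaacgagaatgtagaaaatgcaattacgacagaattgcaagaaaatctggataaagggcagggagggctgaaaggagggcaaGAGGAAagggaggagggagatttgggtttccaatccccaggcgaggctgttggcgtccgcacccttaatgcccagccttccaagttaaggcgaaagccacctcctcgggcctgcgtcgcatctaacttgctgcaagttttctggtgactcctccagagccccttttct

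Per kb of exon, Cebpb and Spi1 were the most abundant of the factors in both groups. Cebpb had 161 CPM per kb in HFD+MGIG and 318 in HFD, and Spi1 had 35.4 in HFD+MGIG and 48.9 in HFD. Zeb2 came next in both groups with 14.8 and 22.1 CPM per kb in HFD+MGIG and HFD. After these came Mef2c with 11.7, Irf8 with 10.8 and Maf with 10.6 CPM per kb in HFD+MGIG, and Irf8 with 15.1, Mef2c with 14.3, Maf with 10.3 and Cebpa with 10.2 CPM per kb in HFD. Within HFD+MGIG these middle ranks did not differ beyond the spread between libraries. Runx1 had 6.29, Bhlhe41 6.05 and Cebpa 4.51 CPM per kb in HFD+MGIG, and in HFD Runx1 had 7.88 and Bhlhe41, the lowest, 1.55. Exon length here is the union over all annotated isoforms, so genes with many isoforms, such as Mef2c and Zeb2, are set low.

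**Figure D2:**
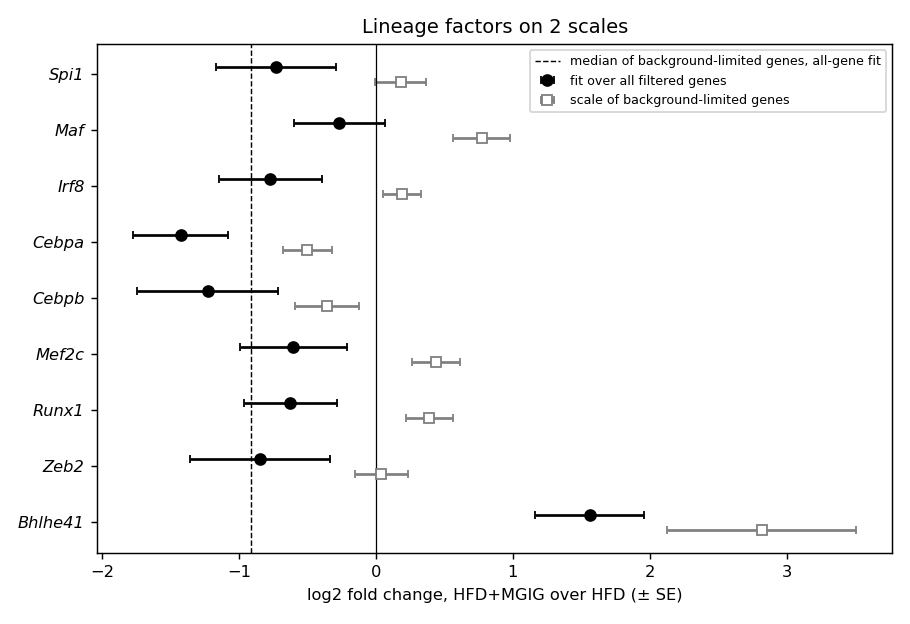
Log2 fold change, HFD+MGIG over HFD, with SE bars for the 9 factors in the fit over 23053 filtered genes (filled circles) and on the scale of the 2606 background-limited genes (open squares). The dashed line at −0.91 marks the median of the background-limited genes in the first fit, and Cebpa and Cebpb lie left of it while the other 7 lie right of it.

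A second scale, free of the library total, was the sum of 15 macrophage identity genes within each library, most of it from Lyz2, C1qb and Csf1r. Cebpa was 0.0874%, 0.103% and 0.0872% of that sum in HFD+MGIG 1, 2 and 3 and 0.169%, 0.154% and 0.154% in HFD 1, 2 and 3. Cebpb was 1.81%, 1.68% and 1.93% of it in HFD+MGIG and 4.03%, 2.23% and 2.34% in HFD. Both C/EBP genes were lower without overlap on this scale, with mean log2 differences of −0.78 and −0.61. The share of all genes without overlap on this scale was not computed, so the separation of single factors has no background beside it. Without HFD 1 the Cebpb difference was −0.34.

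Zeb2 was lower without overlap too, at 2.19% ± 0.265 in HFD+MGIG and 2.61% ± 0.133 in HFD (SD, n = 3 each; log2 difference −0.26), and Bhlhe41 was higher without overlap (log2 difference 2.33). For these 4 the two-sided exact permutation p was 0.1, the smallest that 3 against 3 libraries allow (0.225 adjusted over the 9 factors). The ratio does not remove background counts. Bhlhe41 was 0.909% of the sum in HFD+MGIG 2, where its level was 1.01 times the bound. Spi1, Irf8, Maf, Mef2c and Runx1 overlapped between the groups, with log2 differences of −0.14, −0.09, 0.49, 0.15 and 0.11 and exact permutation p of 0.5, 0.8, 0.3, 1.0 and 0.7. Without HFD+MGIG 2 the differences were −0.16 for Mef2c, −0.15 for Runx1, 0.13 for Maf and 1.53 for Bhlhe41, and without HFD+MGIG 1 that of Irf8 was 0.067. Spi1 made up 0.719% ± 0.139 of the sum in HFD+MGIG and 0.784% ± 0.0720 in HFD. The identity genes themselves had 0 of 15 called in either direction in edgeR (2 at an unadjusted p under 0.05), with 15 of 15 log2 fold changes below 0 and a median of −0.62. Over all filtered genes 17.8% were called lower and 43.0% higher. Of the background-limited genes, a set that holds 13 of the 15, 96.8% were below 0 in that fit, with a median of −0.91. On the background-limited scale 0 of the 13 were called, and their median was 0.28.

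**Figure D3:**
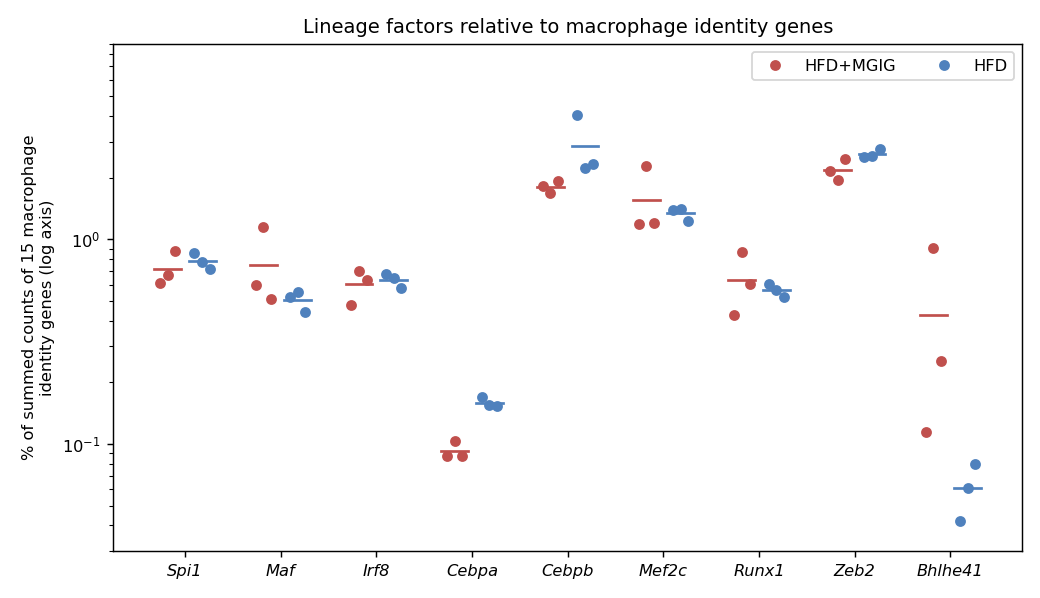
Counts of each factor as a percentage of the summed counts of 15 macrophage identity genes in the same library (log axis), with points for the 3 HFD+MGIG (red) and 3 HFD (blue) libraries and lines for group means. Cebpa, Cebpb and Zeb2 lie lower and Bhlhe41 higher in HFD+MGIG without overlap, and the other 5 factors overlap between the groups.

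Relatives of the factors were lower more often than higher over all filtered genes. Of 39 relatives and partners in the ETS, MAF, IRF, C/EBP, MEF2, RUNX, ZEB, BHLHE and MiT groups, 37 were tested, 17 were called lower and 2 higher, and the median log2 fold change was −0.96. Beside them, 17.8% of all filtered genes were called lower and 43.0% higher (median 0.38), and 42.9% of the background-limited genes lower and 2.15% higher (median −0.91). Of the 37 relatives 12 were background-limited, and 15 had an HFD+MGIG mean below the bound. On the background-limited scale 2 of 12 were called lower and 0 higher, with a median of −0.16, beside 6.25% lower and 4.49% higher of all 2606 genes. DESeq2 called 8.75% of these 2606 genes lower and 7.18% higher.

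Those 2 were Bhlhe40, which shares its role with Bhlhe41, and Ets2, an ETS factor induced by growth factor signalling. Bhlhe40 had 170, 115 and 169 CPM in HFD+MGIG and 362, 409 and 364 CPM in HFD, and it fell on both scales (−1.62, SE 0.433, adjusted p = 0.00653 in the edgeR fit of all filtered genes; −0.61, SE 0.141, adjusted p = 0.0276 among background-limited genes). The groups were far apart, and the direction was opposite to that of Bhlhe41. Ets2 had 114, 44.7 and 108 CPM in HFD+MGIG and 196, 218 and 271 CPM in HFD (−1.63, edgeR adjusted p = 0.0104; −0.72, SE 0.182, adjusted p = 0.0396 among background-limited genes). Its mean bound for HFD+MGIG was 37.0 CPM and the bound of HFD+MGIG 2 was higher, so the level in that library was not clear of the background. Ets1, an ETS factor of lymphocytes and endothelium, had 57.4, 53.7 and 83.2 CPM in HFD+MGIG and 151, 158 and 192 CPM in HFD (−1.67, edgeR adjusted p = 0.00233). The mean bound of Ets1 for HFD+MGIG was 54.3 CPM, and in HFD+MGIG 2 the bound was above that mean.

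Cebpd, a further C/EBP gene, had 105, 64.6 and 83.8 CPM in HFD+MGIG and 215, 185 and 135 CPM in HFD and was called lower (−1.36, SE 0.399, edgeR adjusted p = 0.0111). Cebpg, a partner without activation domain, was not (−0.43, edgeR adjusted p = 0.214). Of the 8 IRF relatives 2 were called lower and 0 higher, and Irf5, which drives inflammatory macrophage genes, had 122, 44.7 and 137 CPM in HFD+MGIG and 166, 166 and 171 CPM in HFD (−0.99, edgeR adjusted p = 0.0821).

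Mef2a, a MADS-box relative of Mef2c, had 515, 854 and 488 CPM in HFD+MGIG and 253, 331 and 319 CPM in HFD. All HFD+MGIG values were above all HFD values, at more than the bound of 94.0 CPM, yet neither the log2 fold change of 0.67 (SE 0.431, adjusted p = 0.184 in edgeR) nor that of 1.93 among background-limited genes (SE 0.480, adjusted p = 0.0539) passed the threshold. Cbfb, the partner subunit of RUNX proteins, had 71.1, 32.1 and 56.3 CPM in HFD+MGIG and 85.4, 86.4 and 92.7 CPM in HFD and was called lower over all filtered genes (edgeR adjusted p = 0.0396) but not among background-limited genes (−0.07, adjusted p = 0.762). The 2 relatives called higher were Runx2, a factor of bone, and Tfec, a MiT factor of macrophages. Runx2 had 6.75, 23.9 and 11.8 CPM in HFD+MGIG and 2.15, 2.29 and 1.74 CPM in HFD, and both genes were below their bounds in HFD+MGIG on average (56.6 CPM for Runx2 and 35.8 CPM for Tfec).

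**Figure D4:**
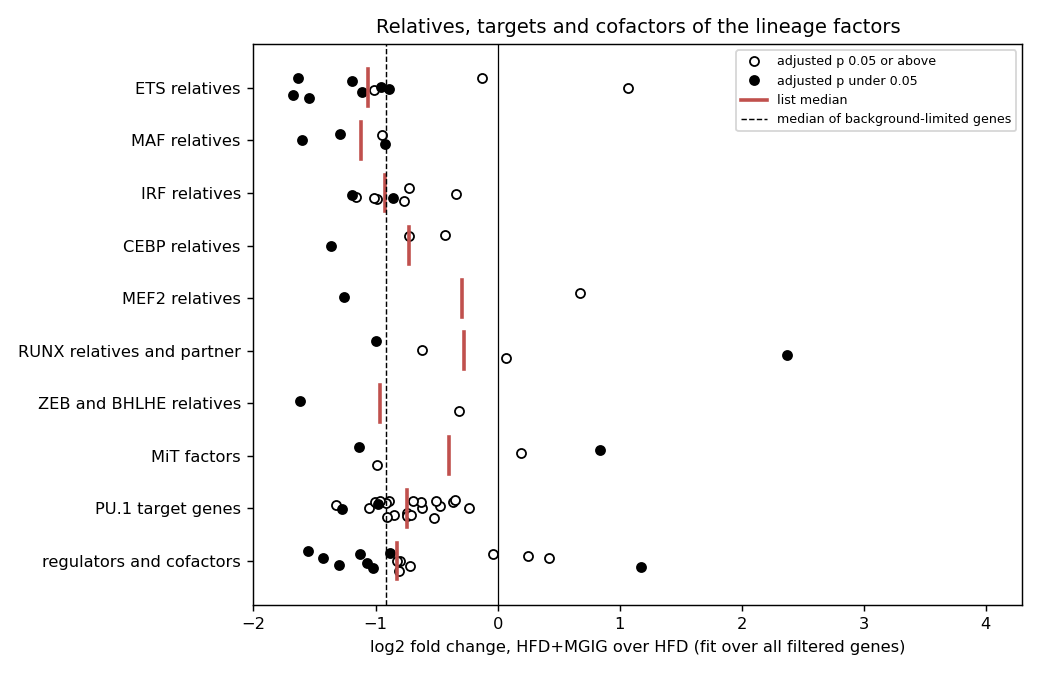
Log2 fold change, HFD+MGIG over HFD, in the fit over all filtered genes for tested relatives, PU.1 target genes and cofactors (filled where the edgeR adjusted p is under 0.05), with list medians in red and the median of the background-limited genes dashed at −0.91. The ETS, MAF and IRF relatives centre near the dashed line, and the 22 PU.1 target genes lie below 0 with 2 of them called lower.

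Of 22 genes known as PU.1 targets, all were tested, 2 were called lower and 0 higher in edgeR, and 22 of 22 log2 fold changes were below 0 with a median of −0.74. Over all filtered genes 17.8% were called lower and 43.0% higher, and 96.8% of the background-limited genes, a set that holds 19 of the 22, had a log2 fold change below 0. The list shares 7 genes with the macrophage identity list. Csf1r, the receptor for the macrophage growth factor, had 1300, 318 and 1102 CPM in HFD+MGIG and 1298, 1674 and 1753 CPM in HFD (−1.06, SE 0.609, edgeR adjusted p = 0.143). HFD+MGIG 1 lay within the HFD values and HFD+MGIG 2 far below. The 2 called lower were Csf2ra, a chain of the GM-CSF receptor (−1.27, edgeR adjusted p = 0.0371), and Ncf4, a subunit of the NADPH oxidase (−0.98, adjusted p = 0.0419 in edgeR). Among background-limited genes 0 of 19 were called lower and 1 higher, Msr1, a scavenger receptor (0.66, SE 0.172, adjusted p = 0.0444 in edgeR), around a median of 0.16.

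Among 15 regulators and cofactors of the factors, 7 were called lower and 1 higher, around a median of −0.82 (log2 fold change), and 11 had an HFD+MGIG mean below the bound. The shares over all filtered genes were 17.8% lower and 43.0% higher, and for background-limited genes in that fit 42.9% and 2.15%. Trib1, whose product directs C/EBP-alpha to degradation, had 108, 55.1 and 112 CPM in HFD+MGIG and 167, 226 and 216 CPM in HFD (−1.43, SE 0.440, edgeR adjusted p = 0.0143; −0.48, adjusted p = 0.0991 among background-limited genes). Ctbp1, a corepressor that binds ZEB proteins, was the 1 of 3 called lower on that scale (−0.64, SE 0.173, edgeR adjusted p = 0.0495). It had 56.9, 21.2 and 58.9 CPM in HFD+MGIG and 109, 111 and 116 CPM in HFD. Its mean bound for HFD+MGIG was 28.7 CPM, above the level in HFD+MGIG 2. Hdac9, a class IIa deacetylase that binds MEF2, was called higher (1.18, SE 0.262, edgeR adjusted p = 0.00205), with 36.9, 56.0 and 45.5 CPM in HFD+MGIG and 17.4, 13.9 and 17.1 CPM in HFD and a bound of 93.9 CPM in HFD+MGIG.

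The genes whose levels followed Spi1 most closely over the 6 libraries, among 9706 coding genes with at least 2 exon blocks and 10 CPM on average, were Pex6, Cdc123, Mllt10, Psmb8 and Dhx34. Their Pearson r of log2 TMM-scaled CPM with Spi1 was 0.996 to 0.998, as a description over 6 libraries that share the depth and composition differences given above, and 37.9% of the ranked genes had r above 0.9. Of the other factors, Irf8 had 0.989 (rank 80), Zeb2 0.982 (rank 211), Runx1 0.971 (rank 572), Mef2c 0.896, Maf 0.724 and Bhlhe41 −0.74. The 1-exon genes Cebpa and Cebpb were not ranked.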

How the data were processed

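The authors deposited estimated counts for each gene, many of them fractional. Per the submitters' processing notes, fastp, HISAT2, StringTie and the build mm10 were used, without versions or the counting program. Per the labels' protocols, libraries were made from 10 ng of total RNA with a SMART-Seq v4 kit, and no strand is stated. Counts were rounded, and 0 named columns were left unused. GENCODE M21 (mm10) supplied symbols, positions and exon lengths, and 51933 of 57180 IDs matched it.

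Groups were compared with the quasi-likelihood test of edgeR (version 4.0.16, R 4.3.3; TMM factors, filterByExpr, robust fit, group as the only term) over all 6 libraries, with Benjamini-Hochberg adjustment over all genes tested and a threshold of 0.05. SEs are the log2 fold change over the root of the F statistic. Spi1 and Zeb2 belong to the background-limited set. The other 7 factors were added to it as rows under its library factors, and their p-values were adjusted over the set and these rows. Alternatives were DESeq2 1.42.0 and its size factors, library totals, other filters, limma 3.58.1 voom with quality weights, background subtraction, a fit blocked on replicate number, and fits that leave out 1 library at a time. All factors, gene lists, background measure and tests were chosen with earlier results of these data known. Genes named from each list were the 3 most abundant and the 2 with the smallest p. Msr1, Trib1 and Ctbp1 were added after their values were seen.

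The total count per library ran from 2214367 to 16740374, and the lower depth of HFD+MGIG limits its precision at low levels. The edgeR fit was tested on simulated counts.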

Additional observations from a re-analysis of the deposited data

How the results depend on the processing

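Cebpa was called lower and Bhlhe41 higher under all 13 alternatives of the fit over all filtered genes, with log2 fold changes of −1.70 to −1.05 and 1.27 to 2.05. The count of factors called lower (1) became 2 with DESeq2 size factors, 2 with no filter, 2 with the replicate block, 3 with DESeq2 and 5 with limma voom, and 1 to 3 with a library left out. On the background-limited scale the count called higher (1, Maf) became 0 with the median or the 90th percentile background subtracted or with DESeq2 size factors, 2 with DESeq2 and 2 with the replicate block (Maf and Bhlhe41, 2.59 with an adjusted p of 0.0101 in the block) and 0 to 2 with a library left out, and 0 were called lower under any of these, DESeq2 included, although Cebpa had an unadjusted p of 0.0225 in edgeR. Over all filtered genes, 9902 were higher and 4109 lower. The higher count was 18271 with no filter and 4581 at 5 CPM or more in 3 libraries. The lower count was 2426 with library totals, 1572 at 5 CPM or more in 3 libraries, 6873 with limma voom and 1909 (HFD 3) to 5169 (HFD+MGIG 2) with a library left out, with 2032 without HFD+MGIG 3 and 2400 without HFD 2. The cause of these shifts was not tested.

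Signs changed for Maf with library totals (0.062) and at 5 CPM or more (0.14). On the background-limited scale the 90th percentile background subtracted gave −0.45 for Maf, −0.74 for Irf8, 0.058 for Cebpb, −0.54 for Mef2c, −1.67 for Runx1, −0.49 for Zeb2 and −0.58 for Bhlhe41. Zeb2 also had −0.055 with the median background subtracted, and with a library left out it ranged from −0.11 (HFD+MGIG 3) to 0.21 (HFD+MGIG 2), with −0.046 without HFD 1 and −0.0028 without HFD 2. Spi1 ranged from −0.060 (HFD+MGIG 3) to 0.32 (HFD+MGIG 2) with a library left out. None of these values passed the threshold. The median log2 fold change of all filtered genes was 0.38 with TMM, 0.54 with DESeq2 size factors and 0.74 with library totals. Deviations of same-numbered libraries from their group means correlated at 0.0275, 0.200 and 0.107. HFD+MGIG 1 correlated best with HFD 3, whereas HFD+MGIG 2 and HFD+MGIG 3 correlated best with the HFD library of the same number. Deviations from a mean of 3 libraries depend on each other, so these values cannot decide whether the replicate numbers mark pairs. With the replicate block 9832 genes were higher and 4307 lower. Cebpa had 16 counts in HFD+MGIG 2, the smallest library. The ratio to the identity genes was lower for 5 of 9 factors, 4 to 5 under the other denominators and 4 to 7 with a library left out, with signs turned for Mef2c (−0.16) and Runx1 (−0.15) without HFD+MGIG 2 and for Irf8 without HFD+MGIG 1 (0.067) or the 3 highest genes (0.046).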

Other observations

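B cell marker genes differed in how their libraries fell. Cd79a, a chain of the B cell receptor, had 3.86, 43.8 and 7.95 CPM in HFD+MGIG 1, 2 and 3 and 2.91 to 12.4 CPM in HFD, with a mean bound of 9.33 CPM for HFD+MGIG (edgeR adjusted p = 0.326). Ms4a1, which encodes CD20, had 19.5, 64.6 and 19.2 CPM in HFD+MGIG and 11.5, 3.88 and 11.1 CPM in HFD (edgeR adjusted p = 0.0121). Its mean bound for HFD+MGIG was 39.6 CPM, and the bound of HFD+MGIG 2 was above that mean.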
